A study of Mus musculus with 2 samples.

Results

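The 34 genes described here encode the machinery that carries glucose to pyruvate and pyruvate onward: 4 glucose and lactate transporters, 11 genes of upper glycolysis, 7 of lower glycolysis, 2 lactate dehydrogenases, 6 genes of the pyruvate dehydrogenase complex and its kinases, 3 of the malate and citrate steps, and the mitophagy receptor Bnip3. They were picked by gene symbol from the 27998 genes counted, and all 34 symbols were present. Levels were measured by droplet-based single-cell RNA-seq of GFP-positive, DAPI-negative cells sorted from the pharyngeal apparatus with the heart of Swiss Webster mouse embryos at E9.5. The control library (Ctrl) came from Mesp1Cre;Rosa26-GFPflox/+ embryos and the conditional knockout library (cKO) from Mesp1Cre;Rosa26-GFPflox/+;Tbx1flox/flox embryos, so both carry the Cre, which acts in the early mesoderm, and the GFP reporter. Each group was 1 library made from a pooled pair of embryos, and the study's sample summary places the cKO pair at a slightly later somite stage, so genotype, stage and pool cannot be told apart in any comparison below.

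Glycolysis converts glucose to pyruvate outside the mitochondria, and the lactate dehydrogenases turn pyruvate into lactate, which monocarboxylate transporters carry across the cell membrane. The pyruvate dehydrogenase complex instead feeds pyruvate into the citric acid cycle, and its kinases (PDKs) switch it off. Many of these genes are known targets of the hypoxia-inducible factors, and the mouse embryo at this age relies heavily on glycolysis, the heart becoming oxidative only later in life.

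The deposited matrices held 7418 (Ctrl) and 10281 (cKO) barcodes with 132017331 and 162874391 UMIs, of which 6591 and 8969 cells were kept (median 16894 and 14217 UMIs). The libraries shared 15 barcodes. Tbx1, the targeted gene, was higher, not lower, in the cKO library over all cells: it stood at 26.5 and 44.5 CPM (UMIs of a gene per 1000000 UMIs of the cells summed) over all kept cells and at 46.4 and 99.9 in multilineage progenitor (MLP)-like cells. It was somewhat lower, 119 and 93.4, in branchiomeric muscle progenitor (BrM)-like cells. Counts of 3′ ends do not separate an intact from a recombined Tbx1 transcript, and because the level goes against the label, "the library labelled cKO" is written throughout. Cells fell into 10 populations present in both libraries, named from marker lists (cells in the libraries labelled Ctrl and cKO): MLP-like (1211 and 1669), BrM-like (534 and 679), somatic mesoderm with anterior heart field (SoM/aSHF)-like (402 and 403), posterior second heart field (pSHF)-like (1133 and 1168), cardiomyocyte (CM)-like (262 and 459), endothelium-like (374 and 394), pharyngeal mesenchyme-like (375 and 672), paraxial mesoderm-like (346 and 511), septum transversum mesenchyme-like (224 and 429) and epicardium-like (63 and 87). An erythroid-like population had 149 cells in the library labelled cKO and 0 in the other, and 1667 and 2349 cells stayed unnamed.

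Of the 34 genes, 33 had a RefSeq promoter window (GRCm38.p6, 250 bases before to 50 after an annotated start). Of these 33, 19 held the letters ACGTG on either strand. ACGTG is 1 form of the core recognised by the hypoxia-inducible factors. The other form, GCGTG, was not counted. The same letters occurred in at least 1 window of 21.8% of 27025 genes; by window, they were in 23 of 48 windows of the set (47.9%) and in 19.6% of all 32851 windows. The 4 windows below are shown because Hk2 and Pfkfb3 were lower in the library labelled cKO, Pgk1 was higher and Ldha differed little, although each holds at least 2 matches; capitals mark every ACGTG or its reverse CACGT, and CACGTG counts as an overlapping match on both strands. Ldha held 5 matches in the window shown. No window of Eno1, Gpi1, Pdk1 or Mdh2 held ACGTG, although GCGTG occurred in windows of Eno1 and Pdk1. This says nothing about binding elsewhere, and a match is not a binding site shown by these data. Slc2a3 had no window in the table.
Hk2 (chr6:82774405-82774704, minus strand): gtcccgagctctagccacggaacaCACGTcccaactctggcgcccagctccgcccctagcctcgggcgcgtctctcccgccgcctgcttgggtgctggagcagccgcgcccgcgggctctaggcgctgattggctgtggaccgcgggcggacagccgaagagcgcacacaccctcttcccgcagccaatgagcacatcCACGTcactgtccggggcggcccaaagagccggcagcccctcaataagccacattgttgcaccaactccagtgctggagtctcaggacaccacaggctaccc
Pfkfb3 (chr2:11502041-11502340, minus strand): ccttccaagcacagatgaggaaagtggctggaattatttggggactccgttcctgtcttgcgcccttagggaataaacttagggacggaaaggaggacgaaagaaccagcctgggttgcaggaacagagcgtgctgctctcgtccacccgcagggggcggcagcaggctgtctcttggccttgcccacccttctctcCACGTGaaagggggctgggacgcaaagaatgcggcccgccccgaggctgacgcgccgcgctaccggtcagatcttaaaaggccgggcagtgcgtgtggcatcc
Pgk1 (chrX:106186850-106187149, plus strand): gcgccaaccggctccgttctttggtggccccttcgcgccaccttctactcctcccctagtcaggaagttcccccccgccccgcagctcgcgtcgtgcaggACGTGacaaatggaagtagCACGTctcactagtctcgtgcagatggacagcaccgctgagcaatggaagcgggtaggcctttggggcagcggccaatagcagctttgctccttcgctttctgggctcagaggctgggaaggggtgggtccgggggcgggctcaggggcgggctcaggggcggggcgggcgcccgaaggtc
Ldha (chr7:46845554-46845853, plus strand): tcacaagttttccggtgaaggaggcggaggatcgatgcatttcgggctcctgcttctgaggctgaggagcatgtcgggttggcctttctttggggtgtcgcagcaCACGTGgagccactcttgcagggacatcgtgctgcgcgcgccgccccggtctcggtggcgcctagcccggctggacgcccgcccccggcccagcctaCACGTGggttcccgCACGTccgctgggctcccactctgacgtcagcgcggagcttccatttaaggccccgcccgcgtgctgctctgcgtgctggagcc

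Levels below are in CPM over the summed cells of a population. A UMI stands for 1 captured 3′ end, so levels were not divided by transcript length. Where a pair of values is given, the library labelled Ctrl comes first, and intervals, in square brackets beside a log2 ratio, are exact 95% intervals for counting error only. Highest and lowest levels and ranges are over the 10 populations present in both libraries. With 1 library per group no test of the groups was possible.

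The 34 genes together were most abundant in cardiomyocytes. Their summed level was 15098 and 18287 in CM-like cells, 12029 and 12762 in epicardium-like cells, and between 8216 (septum transversum mesenchyme-like, Ctrl) and 12318 (pSHF-like, cKO) elsewhere. Erythroid-like cells had 3951, below each of the 10 populations. In MLP-like cells 7 genes (Gapdh, Ldha, Pgam1, Pkm, Aldoa, Tpi1 and Eno1) carried 81.1% and 82.8% of the UMIs of the set, so the summed level mainly reports these. CM-like cells had the highest level of the 10 populations for 25 of the 32 genes that could be ranked in Ctrl, and for 25 of 33 in the other library, against 16.5% and 16.9% of all genes that passed the same level filter. The highest level was at least 4 times the lowest for 6 of 32 and 10 of 33 genes, against 24.9% and 23.5% of all genes, and the median fold between highest and lowest was 2.59 and 2.75.

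**Figure D1:**
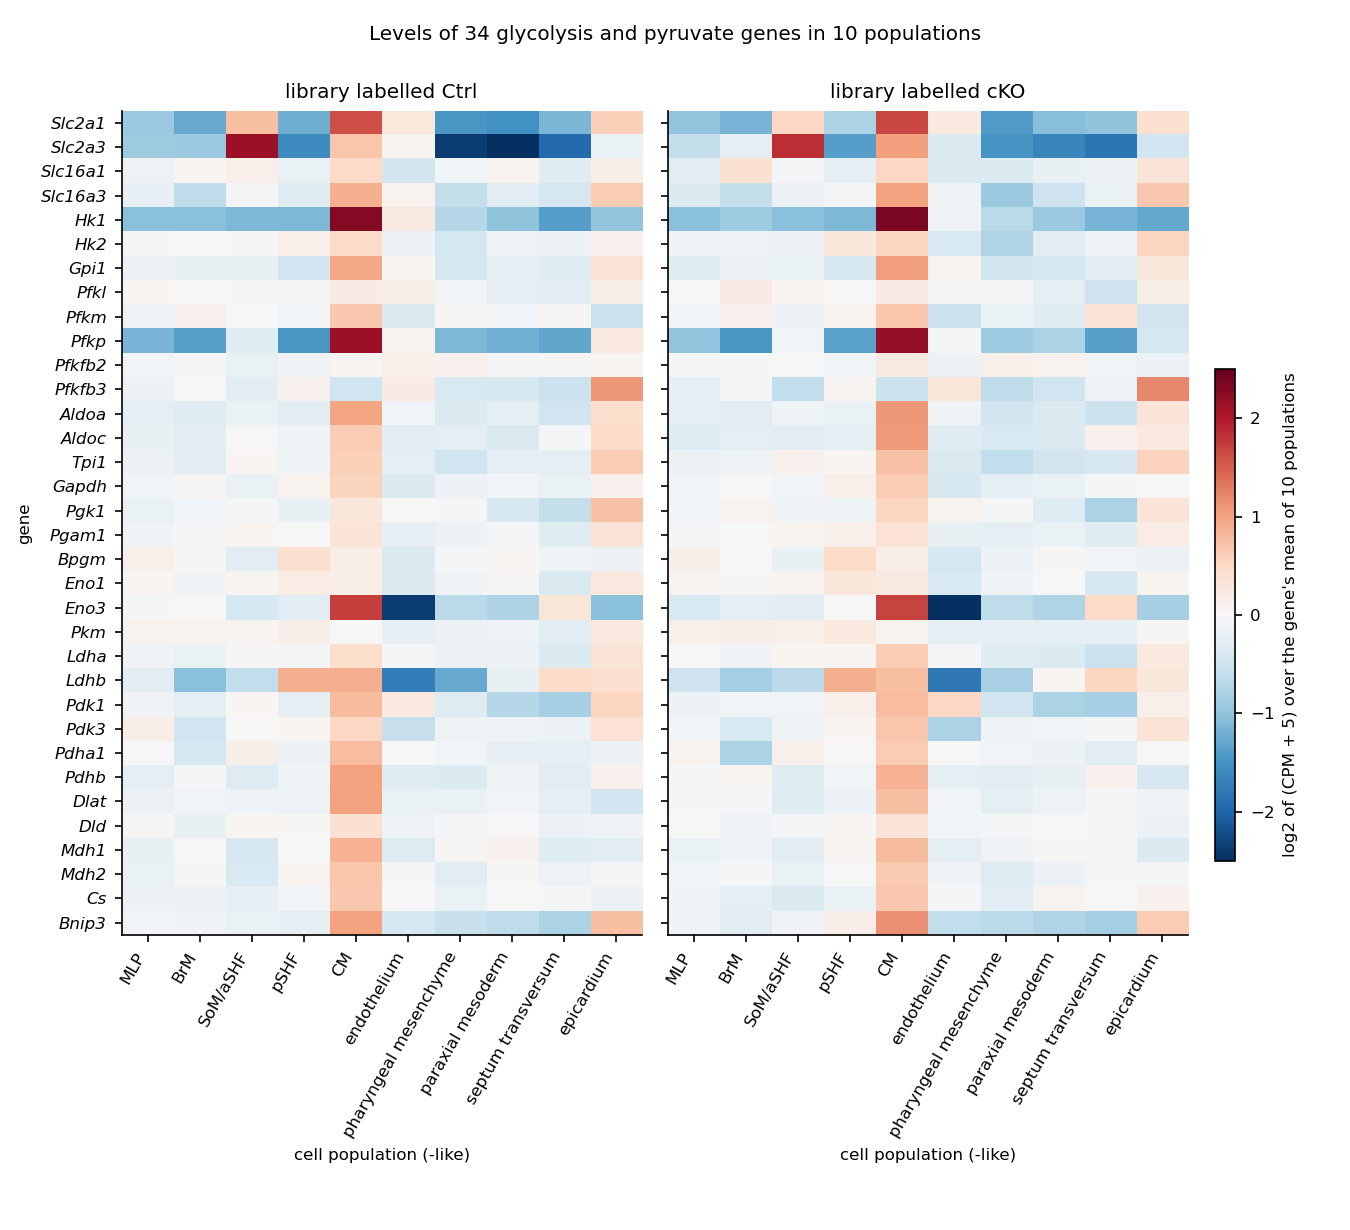
Heat maps of the log2 of (CPM + 5) divided by the gene's mean of (CPM + 5) over the 10 populations, for 34 genes (rows) in the libraries labelled Ctrl (left) and cKO (right). The CM-like column is red for most genes, Slc2a3 is highest in SoM/aSHF-like cells, Pfkfb3 in epicardium-like cells and Eno3 lowest in endothelium-like cells in both libraries.

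The highest level of Slc2a3 was 87.9 times its lowest in the library labelled Ctrl, the widest range of the set there, and 50.4 times in the library labelled cKO, where Pfkp had 71.0. These folds rest on few UMIs at the low end. The lowest Slc2a3 levels were 2.27 (14 UMIs, paraxial mesoderm-like) and 1.53 (10 UMIs, septum transversum mesenchyme-like). The lowest Pfkp level was 0.988 (10 UMIs, BrM-like). Slc2a3 (GLUT3, a high-affinity glucose transporter; chr6:122727809-122802363) stood at 199.6 and 77.2 in SoM/aSHF-like cells, 69.4 and 41.8 in CM-like cells and 43.6 and 12.9 in endothelium-like cells. It was at 3.88 and 3.25 in pharyngeal mesenchyme-like and 2.27 and 2.35 in paraxial mesoderm-like cells. In cells thinned to 5000 UMIs, a Slc2a3 UMI was found in 47.2% (42.2 to 52.3%) and 28.1% (23.8 to 32.8%) of SoM/aSHF-like cells, against 1.75% and 0.988% of paraxial mesoderm-like cells; unthinned, the SoM/aSHF-like shares were 74.6% and 56.1% and the paraxial ones 4.05% and 2.94%. All 34 genes were kept out of the clustering, so Slc2a3 did not help to define these cells. Slc2a1 (GLUT1, the widely used glucose transporter) was highest in CM-like cells, at 363 and 297, then in SoM/aSHF-like (197 and 130.1), epicardium-like (178 and 119.6) and endothelium-like cells (139 and 107), and lay between 30.4 and 57.7 in the other 6 populations. Slc2a3 made up 50.3% (48.4 to 52.2%) and 37.2% (34.5 to 40.0%) of the UMIs of both transporters in SoM/aSHF-like cells and 16.1% and 12.3% in CM-like cells. The lactate transporter Slc16a3 (MCT4, an exporter) reached 183 and 205 in CM-like and 152 and 161 in epicardium-like cells, whereas Slc16a1 (MCT1) lay between 22.7 and 53.4 in the 10 populations.

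Several isozymes had their highest level of the 10 populations in CM-like cells. Hk1, a hexokinase that phosphorylates glucose on entry, was at 117 and 101 in CM-like cells, 24.0 and 14.6 in endothelium-like cells and at most 10.2 in the other 8. It contributed 55.4% (52.2 to 58.5%) and 60.5% (57.7 to 63.2%) of Hk1 plus Hk2 UMIs in CM-like cells, 28.9% and 31.1% in endothelium-like cells and 9.86% and 11.0% in MLP-like cells. In the erythroid-like cells of the library labelled cKO the Hk1 share was 77.9% (68.7 to 85.4%), from 81 of 104 UMIs. Pfkp, the platelet form of phosphofructokinase, the committed step of glycolysis, followed the same pattern, with 76.1 and 70.1 in CM-like cells and at most 16.7 elsewhere. Pfkl, the liver form, supplied most phosphofructokinase UMIs in the other populations (84.4% and 85.7% in MLP-like cells) but 45.0% and 50.3% in CM-like cells. The muscle form Pfkm was a minor one, at 20.6 and 20.4 in CM-like cells and 9.64 and 10.0 in MLP-like cells. Eno3, the muscle enolase, was at 448 and 493 in CM-like cells, 163 and 209 in septum transversum mesenchyme-like cells and 127 and 114 in MLP-like cells, down to 21.1 and 17.1 in endothelium-like cells. Aldoc, a brain-type aldolase, stood at 5.57 and 10.1 in CM-like cells and at most 4.55 elsewhere, and Pfkfb2, a cardiac form of the enzyme that makes the phosphofructokinase activator, did not exceed 1.81 in any of the 10 populations, although it reached 4.57 and 5.04 in 1 CM-like cluster led by Myl2.

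Ldhb, the lactate dehydrogenase subunit associated with oxidative tissue, had another distribution. It stood at 209 and 255 in pSHF-like cells, 211 and 232 in CM-like cells and 155 and 198 in septum transversum mesenchyme-like cells. In Ctrl the first 2 did not differ beyond counting error. Of the 10 populations it was lowest in endothelium-like cells, at 29.9 and 35.9, and it stood at 3.90 in erythroid-like cells. As a share of Ldha plus Ldhb it ran from 1.73% and 1.93% in endothelium-like cells to 10.8% and 11.6% in pSHF-like cells and 10.1% (9.40 to 10.9%) and 13.3% (12.6 to 14.0%) in septum transversum mesenchyme-like cells. Pfkfb3, which makes the phosphofructokinase activator fructose 2,6-bisphosphate, was highest in epicardium-like cells (47.0 and 32.0). Pdk1 was at 80.1 and 50.7 in CM-like cells and 22.7 and 13.3 in septum transversum mesenchyme-like cells, and Bnip3, which tags mitochondria for removal, at 311 and 274 and 85.0 and 65.7. Bpgm, which makes the haemoglobin regulator 2,3-bisphosphoglycerate in red cells, stood at 395 in erythroid-like cells, with a UMI in 80.5% (73.3 to 86.6%) of them after thinning. Elsewhere it ranged from 14.5 to 33.3, with a UMI in 6.54% (endothelium-like, Ctrl) to 14.2% (pSHF-like, cKO) of thinned cells.

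**Figure D2:**
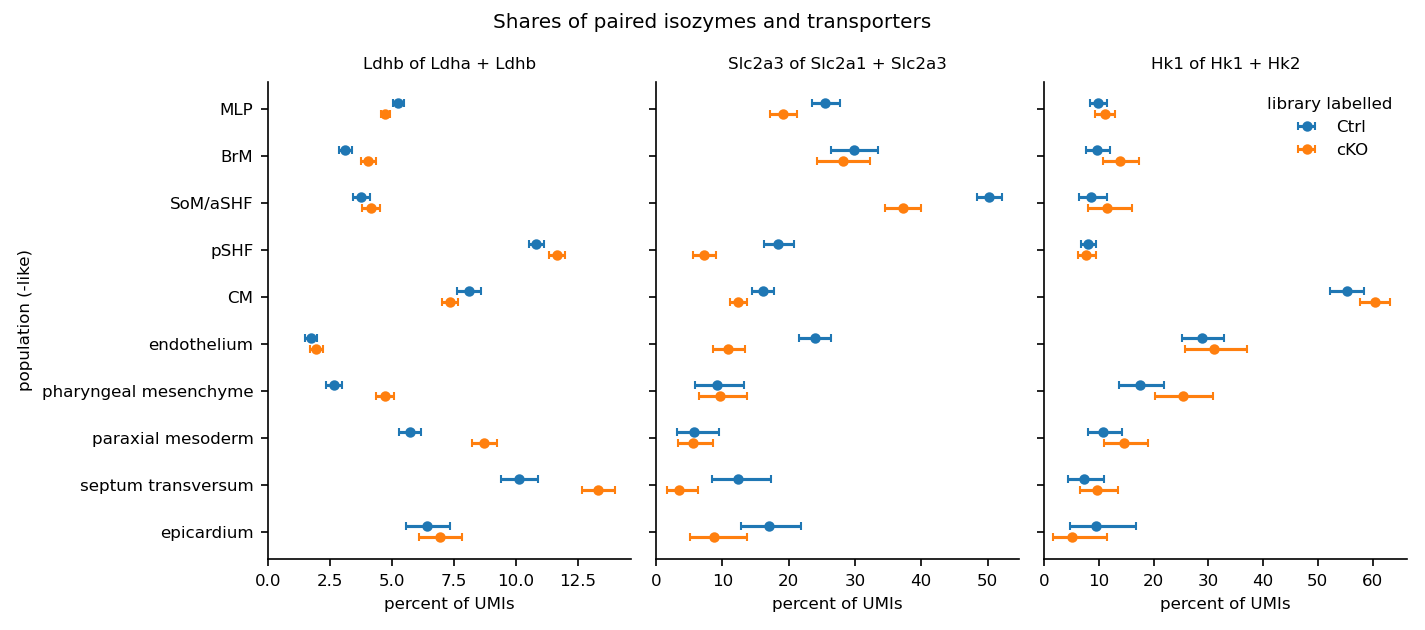
Percent of the UMIs of 2 related genes that came from the one named in the panel, by population (vertical axis) and library (blue, labelled Ctrl; orange, labelled cKO), with exact 95% binomial intervals. Of the 10 populations, Hk1 had its highest share in CM-like cells (55.4% and 60.5%), Slc2a3 in SoM/aSHF-like cells (50.3% and 37.2%), and Ldhb in pSHF-like and septum transversum mesenchyme-like cells.

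Between the libraries, Gpi1, Aldoa, Gapdh, Eno1, Mdh1 and Mdh2 were higher in the library labelled cKO in each of the 10 populations, with every interval above 0; they were 6 of the 28 genes that passed the level filter described next in all 10, against 3.95% of all such genes. Hk2, Pfkfb3 and Pdk1 were lower in each (3 of 28, against 25.8% of all genes), and Slc2a3 in each of the 7 in which it passed that filter. In pSHF-like cells Slc2a3 passed only through the library labelled Ctrl. A gene was counted as higher or lower when its log2 ratio (cKO over Ctrl) was at least 0.5 in size, with at least 10 CPM in 1 library and 30 UMIs in all. By role, the log2 ratio of the summed level in MLP-like cells was -0.33 for the transporters, 0.10 for upper glycolysis, 0.32 for lower glycolysis, 0.18 for the lactate dehydrogenases, -0.04 for the pyruvate dehydrogenase genes and 0.47 for the malate and citrate steps. Lower glycolysis and the malate and citrate steps were above 0 in every population. The other 4 had both signs, with transporters at 0.07 in pSHF-like cells. Upper glycolysis was at -0.03 and the lactate dehydrogenases at -0.06 in paraxial mesoderm-like cells. The pyruvate dehydrogenase genes were at 0.14 in septum transversum mesenchyme-like cells. Over 303 pairs of a gene and a population that passed this filter, 32 were higher and 40 lower. When the libraries were scaled by the median ratio over expressed genes instead of by total UMIs, 54 were higher and 33 lower, since the median ratio of all genes lay between -0.12 and -0.05 by population. This scaling raises the ratio of every gene of a population alike, and the share of all genes past the fold under it was not counted. The summed level of the set was higher in the library labelled cKO in all 10 populations, by 6.09% (epicardium-like) to 23.8% (pSHF-like). Without the 9 genes that have near-identical copies in the genome (described below) it was 4736 and 4722 CPM in paraxial mesoderm-like cells, a difference of -0.277%, and in the other 9 populations higher in the library labelled cKO by 1.40% (epicardium-like) to 17.0% (pSHF-like).

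The counts are read against all genes of the same population. In MLP-like cells 4 of 30 genes were higher (Eno1, Pgk1, Mdh2, Mdh1; 3.03% of all genes) and 4 lower (Pfkfb3, Slc2a3, Pdk1, Hk2; 17.0%). In the same MLP-like cells the summed MLP markers stood at 1310.1 and 972 CPM, the BrM markers at 635 and 313, the pSHF markers at 505 and 292, the septum transversum mesenchyme markers at 143 and 69.4, the epicardium markers at 164 and 78.8 and the CM markers at 72.6 and 129.9, and their part in the ratios was not tested. In BrM-like cells 3 of 30 were higher (Eno1, Pgk1, Ldhb; 5.44%) and 5 lower (Pfkfb3, Hk2, Pdha1, Bnip3, Pdk1; 18.3%); the 12 BrM markers summed to 2355 and 899.7 CPM in these cells, the MLP markers to 979 and 631, the epicardium markers to 346 and 159 and the 9 septum transversum mesenchyme markers to 364 and 24.4, and their part in the ratios was not tested. In SoM/aSHF-like cells 3 of 31 were higher (Eno1, Mdh1, Mdh2; 3.79%) and 5 lower (Pfkfb3, Slc2a3, Pdk1, Hk2, Slc2a1; 14.4%), with epicardium markers at 207 and 119.6 CPM. The higher share exceeded that of all genes in each of these progenitor populations, while the lower share was below or near it.

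In pSHF-like cells 4 of 30 were higher (Eno1, Mdh1, Gpi1, Pgk1; 2.60%) and 2 lower (Slc2a3, Pfkfb3; 14.5%); the summed CM markers stood at 213 and 508 CPM in these cells, and their part in the ratios was not tested. In CM-like cells 4 of 33 were higher (Aldoc, Eno1, Pgk1, Gpi1; 4.96%) and 4 lower (Pfkfb3, Slc2a3, Pdk1, Hk2; 14.6%), with epithelium markers at 294 and 469 CPM. Of these genes, Aldoc passed the level filter only through the library labelled cKO. In endothelium-like cells 3 of 31 were higher (Eno1, Mdh1, Pgk1; 3.32%) and 5 lower (Slc2a3, Hk2, Hk1, Pfkfb3, Bnip3; 16.4%). Eno1 was in the higher group of each of these. In pharyngeal mesenchyme-like cells 2 of 30 were higher (Ldhb, Eno1; 4.12%) and 4 lower (Pfkfb3, Hk2, Pdk1, Slc16a1; 14.4%), with SoM/aSHF markers at 237 and 361 CPM. In paraxial mesoderm-like cells 3 of 29 were higher (Eno1, Pgk1, Ldhb; 7.34%) and 4 lower (Pfkfb3, Pdk1, Hk2, Slc16a1; 14.1%); the 10 paraxial mesoderm markers summed to 935 and 617 CPM in these cells, the 10 cranial mesenchyme markers to 872 and 1034, the 12 pSHF markers to 455 and 115, the septum transversum mesenchyme markers to 187 and 332 and the CM markers to 45.7 and 136, with Tbx1 at 13.0 and 83.8, and their part in the ratios was not tested. In septum transversum mesenchyme-like cells 4 of 29 were higher (Mdh1, Eno1, Pdhb, Mdh2; 4.59%) and 2 lower (Pdk1, Hk2; 16.6%), with CM markers at 386 and 671 CPM and epithelium markers at 246 and 439. In epicardium-like cells, the smallest population, 2 of 30 were higher (Eno1, Dlat; 8.44%) and 5 lower (Slc2a3, Pfkp, Pdk1, Slc2a1, Pfkfb3; 15.0%), both shares near those of all genes, with SoM/aSHF markers at 930.1 and 611 CPM. Apart from the cranial mesenchyme list and the erythroid list given later, the lists of other cell types named here are those whose sum differed by at least 1.5-fold between the libraries and reached 100 CPM in 1, and the part of any of them in the ratios was not tested. The median ratio of the set was above that of all genes in every population, at 0.04 against -0.11 in MLP-like, 0.20 against -0.10 in pSHF-like and 0.21 against -0.12 in septum transversum mesenchyme-like cells, and at 0.00 against -0.05 in paraxial mesoderm-like cells, where the distance was smallest.

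**Figure D3:**
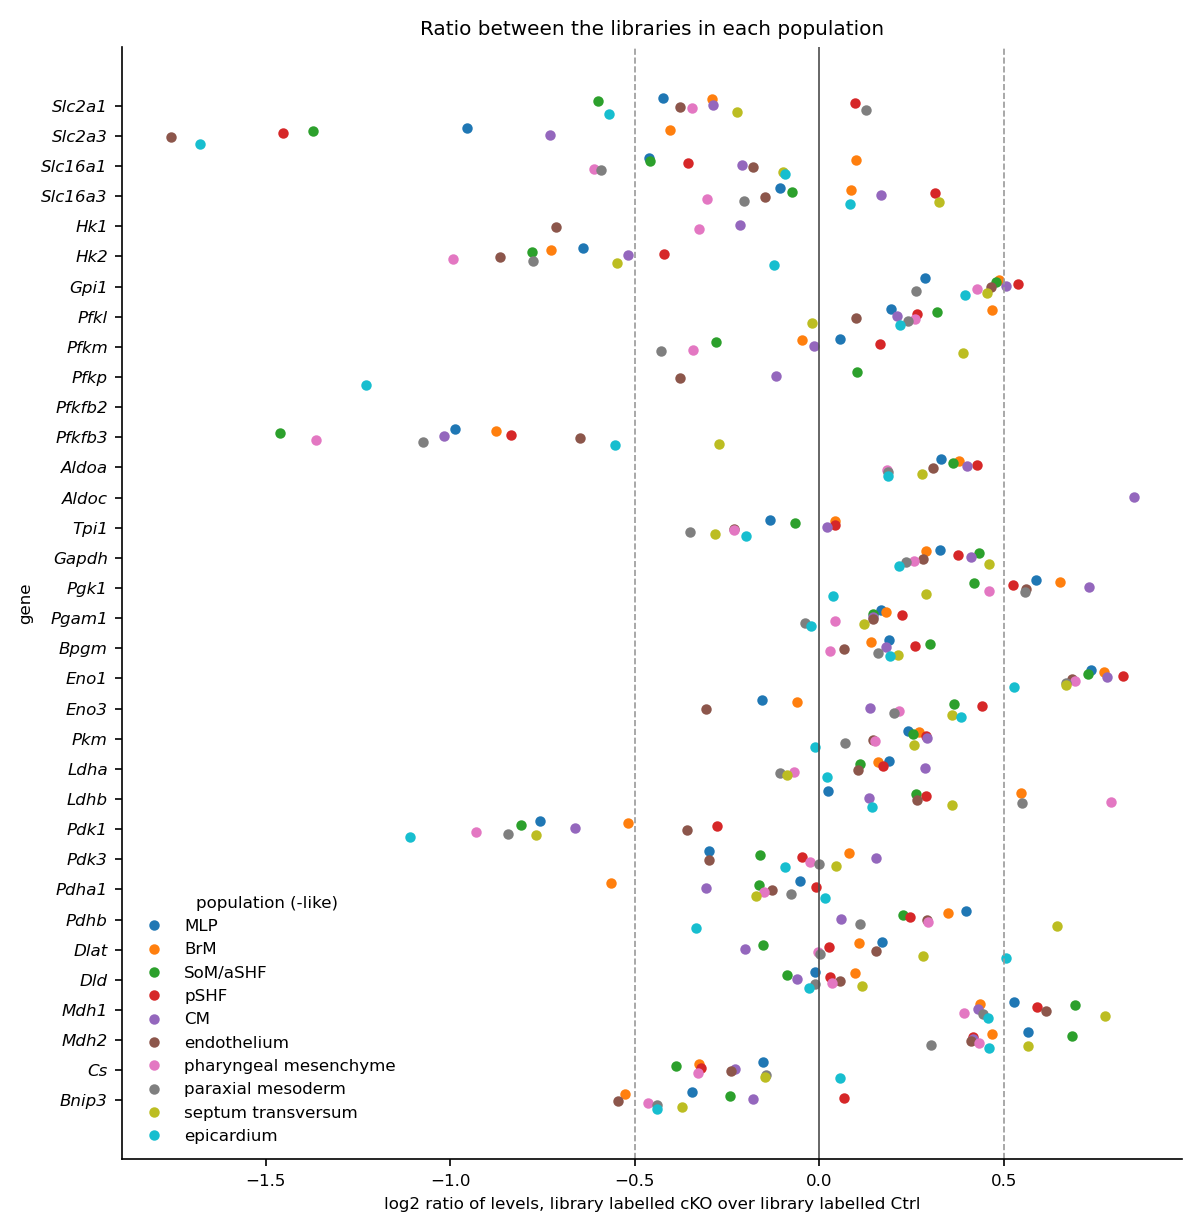
Log2 ratio of levels (library labelled cKO over library labelled Ctrl) for each gene in the populations where it passed the level filter, 1 point per population; dashed lines mark 0.5 in each direction. Eno1 lies right of the line in 10 of 10 populations, Pfkfb3 left of it in 9 of 10, and Hk2 and Pdk1 in 8 of 10.

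The ratio went with the level over all genes, which bears on both groups. In MLP-like cells the median ratio of all genes was -0.23 for genes under 30 CPM, -0.08 from 30 to 100, 0.02 from 100 to 300, 0.05 from 300 to 1000 and 0.09 above 1000. Of all genes under 30 CPM 25.7% were lower past the fold, as were 2 of the 5 genes of the set in that range (Pfkfb3 and Slc2a3), and 13.3% from 30 to 100, where Pdk1 and Hk2 were 2 of 13. Eno1 was the 1 higher gene among 3 of the set between 300 and 1000, against 4.86% of all genes. How far level, or the depth that differed between the libraries (median 16671 and 15456 UMIs in MLP-like cells), carried these ratios was not tested beyond thinning every cell to 5000 UMIs, after which Pfkfb3 and Slc2a3 had ratios of -1.17 and -1.22 in MLP-like cells and Pdk1 and Hk2 came just short of the fold, at -0.497 and -0.468.

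**Figure D4:**
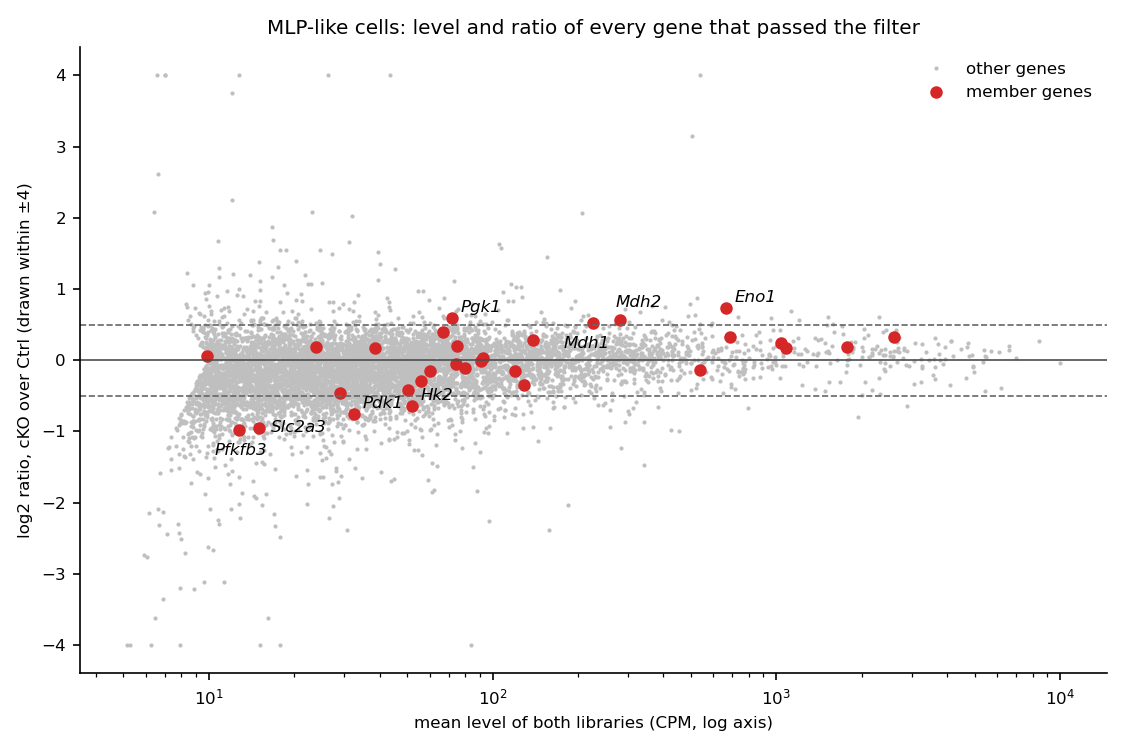
Log2 ratio (library labelled cKO over library labelled Ctrl) against the mean level of both libraries (CPM, log axis) for all 7664 genes that passed the filter in MLP-like cells (grey) and the 30 genes of the set (red). The lower genes of the set sit at low levels, where many grey points are also below the dashed line at -0.5, and Eno1, Mdh1, Mdh2 and Pgk1 sit above the line at 0.5.

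Among the transporters, Slc2a3 was lower in all 7 populations in which it passed the filter and past the fold in 6. Its log2 ratio was -1.76 [-2.15 to -1.38] in endothelium-like, -1.68 [-2.59 to -0.84] in epicardium-like, -1.45 [-1.87 to -1.06] in pSHF-like (10.6 and 3.86 CPM) and -1.37 [-1.53 to -1.22] in SoM/aSHF-like cells, where its level was highest. In MLP-like cells it stood at 19.8 and 10.2, a ratio of -0.96 [-1.18 to -0.74]. In BrM-like cells, at 19.2 and 14.5, it did not reach the fold. Slc2a1 was past the fold in SoM/aSHF-like cells (-0.60 [-0.73 to -0.47]) and epicardium-like cells (-0.57 [-0.86 to -0.28]; -1.33 in Xist-positive (female) and -0.08 in Y-positive (male) cells), but had ratios of 0.10 in pSHF-like and 0.13 in paraxial mesoderm-like cells. Slc16a1 was past the fold in pharyngeal mesenchyme-like (-0.61 [-0.89 to -0.33]; 35.3 and 23.1 CPM) and paraxial mesoderm-like cells (-0.59 [-0.87 to -0.32]; 39.6 and 26.2), the latter in 6 of 12 alternative settings only, and Slc16a3 in none.

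In upper glycolysis Hk2 and Pfkfb3 were lower and Gpi1 and Aldoa higher in every population. Hk2, the inducible hexokinase (chr6:82725025-82774454), was lower in 10 of 10 populations and past the fold in 8: it stood at 63.6 and 40.8 in MLP-like, 67.7 and 39.4 in SoM/aSHF-like and 47.9 and 24.0 in pharyngeal mesenchyme-like cells, ratios of -0.64 [-0.76 to -0.53], -0.78 [-1.01 to -0.55] and -0.99 [-1.26 to -0.73], the last at -0.28 when only Xist-positive cells were counted. The 2 exceptions were pSHF-like (-0.42) and epicardium-like cells (-0.12 [-0.55 to 0.31]). Pfkfb3 (chr2:11471430-11554071) was lower in 10 of 10 and past the fold in 9, at 17.0 and 8.58 in MLP-like (-0.99 [-1.23 to -0.75]), 15.1 and 5.49 in SoM/aSHF-like (-1.46 [-2.07 to -0.88]) and 13.8 and 5.34 in pharyngeal mesenchyme-like cells (-1.36 [-1.91 to -0.83]). The exception was septum transversum mesenchyme-like cells (-0.27 [-0.83 to 0.30]), and in epicardium-like cells the interval reached past 0 (-0.55 [-1.14 to 0.02]). Of 12 alternative settings, Pfkfb3 was past the fold in 11 in CM-like (-0.23 after thinning), 10 in endothelium-like and 9 in epicardium-like cells. In MLP-like, SoM/aSHF-like and pharyngeal mesenchyme-like cells it reached 10 CPM only in the library labelled Ctrl. Hk1 was past the fold in endothelium-like cells (-0.71 [-1.11 to -0.32]; -0.05 in Xist-positive and -1.24 in Y-positive cells) and Pfkp in epicardium-like cells (-1.23 [-2.47 to -0.09], from 22 and 10 UMIs). Gpi1, the isomerase after hexokinase, was higher in 10 of 10 populations, each interval above 0, and past the fold in pSHF-like (98.0 and 142; 0.54 [0.45 to 0.62]) and CM-like cells (277 and 394; 0.51 [0.41 to 0.60]). Aldoa, the main aldolase, was higher in 10 of 10, with ratios of 0.18 to 0.43, none past the fold. Aldoc was past the fold in the only population where it passed the filter, CM-like cells (0.85 [0.19 to 1.56]), and Pfkl, Pfkm and Tpi1 in none. Aldoc (5.57 and 10.1 CPM) passed there only through the library labelled cKO, where it was higher, so this call is not independent of the filter. Its ratio ran down to 0.35 in the alternative settings.

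In lower glycolysis Eno1 and Pgk1 were past the fold upward and no gene downward. Eno1, the ubiquitous enolase (chr4:150236708-150248879), was past the fold in 10 of 10 populations, from 0.53 [0.39 to 0.66] in epicardium-like to 0.82 [0.79 to 0.86] in pSHF-like cells. Its levels were 498 and 829 in MLP-like, 449.7 and 767 in BrM-like, 545 and 963 in pSHF-like and 537 and 923 in CM-like cells. Pgk1, which makes the first ATP of glycolysis (chrX:106187100-106203699), was past the fold in 6 populations, at 80.6 and 134 in CM-like (0.73 [0.56 to 0.91]), 61.5 and 96.8 in BrM-like (0.65 [0.51 to 0.80]) and 57.6 and 86.6 in MLP-like cells (0.59 [0.49 to 0.69]), but at 112 and 115 in epicardium-like cells (0.04 [-0.29 to 0.37]). The MLP-like ratio of Pgk1 stayed past the fold in 9 of 12 alternative settings, with a lowest value of 0.34. Gapdh, the most abundant gene of the set, was higher in 10 of 10 populations by 0.22 to 0.46 and past the fold in none; in MLP-like cells it stood at 2300.2 and 2887. Pkm and Pgam1 reached 0.29 and 0.22 at most. Eno3 was not past the fold in any population, and its share of the UMIs of both enolases in CM-like cells was 45.5% (44.0 to 46.9%) and 34.8% (33.9 to 35.7%). Bpgm was 21.5 and 34.2 over all kept cells, a log2 ratio of 0.67, and 23.8 in the library labelled cKO without the erythroid-like cells, a ratio of 0.15 (0.07 to 0.22). UMIs of red cell genes were also present in the other populations of that library, where the 9 summed erythroid markers were 72.0 to 80.7 CPM against 0.811 to 6.64 in the library labelled Ctrl, with 4 to 8 of the 9 at 0 in the library labelled Ctrl and 0 to 5 in the other. The embryonic globin Hba-x stood at 0.0464 and 52.7 in MLP-like cells, and the part of these genes in the Bpgm levels of these populations was not tested.

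Of the lactate dehydrogenases, Ldha had ratios from -0.11 (paraxial mesoderm-like) to 0.29 (CM-like), at 1655 and 1886 in MLP-like cells. Ldhb was past the fold in pharyngeal mesenchyme-like (43.5 and 75.3; 0.79), paraxial mesoderm-like (96.1 and 141; 0.55 [0.40 to 0.70]) and BrM-like cells (50.8 and 74.1; 0.55 [0.38 to 0.71]), and at 0.02 [-0.06 to 0.11] in MLP-like cells. The paraxial mesoderm-like ratio of Ldhb stayed past the fold in 5 of 12 alternative settings. The pharyngeal mesenchyme-like ratio did so in 8 of 9 and ran from 0.29 to 1.28.

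Around pyruvate dehydrogenase, Pdk1, a kinase that inactivates the complex (chr2:71873215-71903858), was lower with an interval below 0 in 10 of 10 populations (the 1 of 28 genes to be so, against 4.73% of all genes) and past the fold in 8. It stood at 41.0 and 24.3 in MLP-like (-0.76 [-0.90 to -0.61]), 45.8 and 26.1 in SoM/aSHF-like (-0.81 [-1.10 to -0.53]), 80.1 and 50.7 in CM-like (-0.66 [-0.87 to -0.45]) and 66.0 and 30.6 in epicardium-like cells (-1.11 [-1.67 to -0.57]). The exceptions were endothelium-like (-0.36) and pSHF-like cells (-0.28). In thinned MLP-like cells a Pdk1 UMI was found in 15.7% (13.7 to 17.9%) and 12.2% (10.7 to 13.9%) of cells. Pdk3, the related X-linked kinase, was past the fold in no population and made up 60.1% (58.1 to 62.2%) and 67.5% (65.4 to 69.5%) of the UMIs of both kinases in MLP-like cells. The subunits of the complex differed little: Pdha1 was past the fold in BrM-like cells (55.3 and 37.3; -0.57 [-0.76 to -0.38]), Pdhb in septum transversum mesenchyme-like cells (55.0 and 86.1; 0.65 [0.42 to 0.87]), Dlat in epicardium-like cells (0.51 [-0.12 to 1.15], an interval that spans 0, and past the fold in 6 of 12 alternative settings) and Dld, shared with other dehydrogenases, in none (-0.09 to 0.12).

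Both malate dehydrogenases, which convert malate and oxaloacetate, were higher in the library labelled cKO. Mdh1, the cytosolic form (chr11:21556692-21571934), was above 0 in all 10 populations and past the fold in 5, at 185 and 267 in MLP-like (0.53 [0.47 to 0.58]) and 169 and 289.9 in septum transversum mesenchyme-like cells (0.78 [0.65 to 0.90]). Mdh2, the mitochondrial form (chr5:135778649-135790386), was above 0 in all 10 and past the fold in 3, at 194 and 312 in SoM/aSHF-like cells (0.68 [0.58 to 0.79]). Cs, citrate synthase, went the other way in 9 of 10 populations without reaching the fold (-0.39 to 0.06). Bnip3 was past the fold in BrM-like (142 and 99.0; -0.53 [-0.64 to -0.41]) and endothelium-like cells (113 and 77.4; -0.54 [-0.72 to -0.37]) and at 0.07 in pSHF-like cells. In all, 9 of the 33 genes that passed the level filter somewhere were past the fold upward in at least 1 population (18.8% of all genes) and 10 downward (40.7%), and 14 were in neither group. Pfkfb2 never passed the filter.

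Each library held cells of both sexes, so embryos of different sex within a pool could be set apart by Xist and Y-linked UMIs. In MLP-like cells Eno1 was at 488 and 509 in the Xist-positive and Y-positive cells of the library labelled Ctrl and at 821 and 842 in those of the library labelled cKO. Slc2a3 was at 17.3 and 23.8 against 8.93 and 11.3, and Pdk1 at 38.2 and 46.5 against 22.6 and 26.6. Pgk1, which is X-linked, was at 52.8 and 65.7 against 88.5 and 83.3. The fractions of the libraries did not overlap for any of these genes. Over the set, both fractions labelled cKO were above both labelled Ctrl for 14 of 30 genes (27.4% of all genes) and below for 11 of 30 (50.3%), and the other 5 overlapped. Gpi1, Aldoa, Gapdh, Pgk1, Eno1, Mdh1 and Mdh2 were above in 10 of 10 populations (7 of 28 genes, against 4.21% of all genes), and Hk2, Pfkfb3 and Pdk1 below in 9 of 10 (3 of 28, against 15.4%). The fractions share a library and its preparation, and are not replicates of a genotype.

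**Figure D5:**
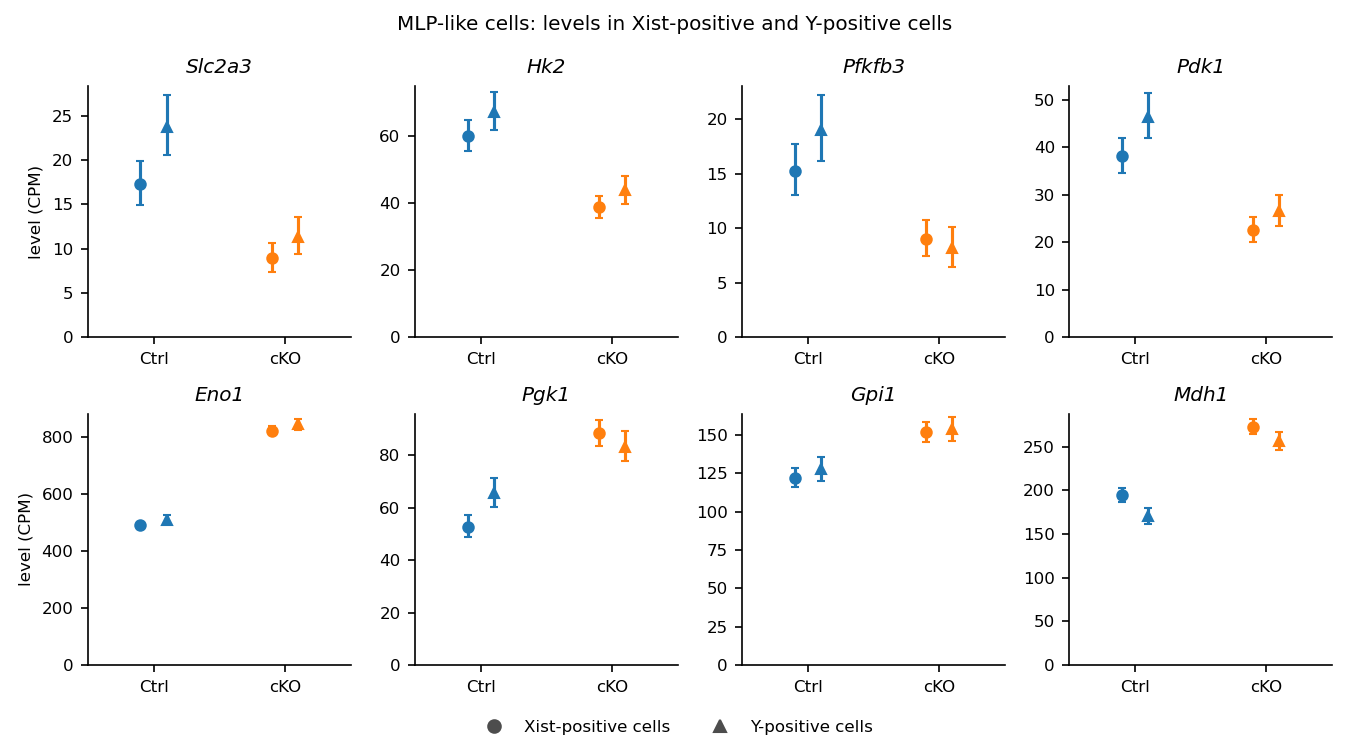
Levels (CPM, axes from 0) of 8 genes in Xist-positive (circles) and Y-positive (triangles) MLP-like cells of the libraries labelled Ctrl (blue) and cKO (orange), with exact 95% Poisson intervals. The orange points are below the blue ones in the upper row (Slc2a3, Hk2, Pfkfb3, Pdk1) and above them in the lower row (Eno1, Pgk1, Gpi1, Mdh1).

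Some of these genes have many near-identical copies, to which reads of the 3′ end can also align. The last 300 bases of the transcript had at least 1 further match in the mouse genome at 95% identity over at least 80% of their length for 9 of 34 genes: Gapdh (37 copies), Pgam1 and Eno1 (4 each), Pgk1 (3), Bnip3 (2), and Gpi1, Ldhb, Pdk3 and Pdhb (1 each). The levels of these 9 are less certain than the others. RefSeq also names 2 copies of Aldoa and 3 of Ldha, for which the search found no such match, so these were counted as genes without copies. Without these 9 genes 10 pairs of a gene and a population were higher and 38 lower in place of 32 and 40, so most of the higher group consists of genes with copies, although Mdh1, Mdh2, Aldoc and Dlat have none. The median ratio of the remaining genes was below 0 in 6 of 10 populations, from -0.16 in endothelium-like to -0.04 in CM-like cells, and above 0 in the other 4 (BrM-like, pSHF-like, septum transversum mesenchyme-like and epicardium-like), while that of the full set was above 0 in all 10. The counted copy Eno1b stood at 9.69 and 11.4 in MLP-like cells and Pgk1-rs7 at 2.23 and 2.45.

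Other genes of the pathway and its neighbours were set beside the 34 in MLP-like cells, which tied with 4 other populations for the most genes past the fold (8). Of 23 further glycolysis genes 3 passed the filter and none was past the fold. Of 28 other pyruvate and citric acid cycle genes 21 passed, 0 were higher and 1 was lower (Ogdh, a subunit of 2-oxoglutarate dehydrogenase; 50.2 and 33.0). Of 54 oxidative phosphorylation genes, all of which passed, Ndufv1, a complex I subunit, was higher (44.8 and 68.5), none was lower, and the median ratio was 0.15. The 13 mitochondrially encoded genes had a median of -0.31, with mt-Nd4l higher (116 and 229) and mt-Nd6 lower (68.5 and 38.2). Of 7 pentose phosphate genes that passed, Rpia was lower (16.9 and 9.41). Of 6 metabolic regulators that passed, Mycn was lower (76.6 and 47.8) and none higher. Of 3 genes induced by tissue dissociation that passed, 0 were past the fold.

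The hypoxia-response list, which shares no gene with the 34, held the largest number of lower genes. In MLP-like cells 20 of 29 passed the filter, 0 were higher and 8 lower (17.0% of all genes were lower), with a median ratio of -0.43 against -0.11 for all genes. Vldlr, a lipoprotein receptor, stood at 16.4 and 3.86, and Vegfa, the endothelial growth factor, at 44.3 and 10.7. The stress regulator Ddit4 was at 35.4 and 15.4, the adenylate kinase Ak4 at 29.7 and 17.1 and the histone demethylase Kdm3a at 36.6 and 22.1. The number of lower genes ran from 4 of 19 in paraxial mesoderm-like (14.1% of all genes) to 12 of 23 in endothelium-like cells (16.4%). Of the list, 1 gene was higher in 1 population (BrM-like). In MLP-like cells 25.7% of all genes under 30 CPM and 13.3% from 30 to 100 were lower. How far level carried the ratios of this list was not tested. The summed level of the list in MLP-like cells was 1749 and 1959 in the Xist-positive and Y-positive cells of the library labelled Ctrl and 1490.2 and 1551 in those of the library labelled cKO.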

How the data were processed

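Per the submitters' processing notes and the deposited feature tables, the authors aligned 10x 3′ reads to mm10 and counted UMIs with Cell Ranger (3.1.0), and the deposited matrices hold raw UMI counts per gene and barcode, 1 matrix per library. From these counts, cells with at least 1000 genes and at most 10% mitochondrial UMIs were kept (411 and 508 barcodes failed in the libraries labelled Ctrl and cKO). The own threshold of the doublet caller (scanpy 1.11.5) marked 0.0404% and 11.3% of cells, so a fixed rate of 0.8% per 1000 cells was removed instead (416 and 804). Cells were clustered in Seurat (5.3.0) after integration, without 333 genes that include the 34 described. A first pass gave 10 provisional populations. The reported clustering also left out 1339 further genes that differed strongly between the libraries within any of these populations. Of these genes, 495 had been variable in the first pass. Clusters were named from marker lists, and the naming thresholds were set after the data were seen. Counts were summed per population and library and divided by their total (CPM).

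With 1 library per group, levels have exact Poisson, ratios exact conditional and shares exact Clopper-Pearson 95% intervals (scipy 1.17.1), which cover counting error only, as UMIs are not independent embryos. The counting and its intervals were tested on simulated data. Named per population were genes past a log2 ratio of 0.5, largest first and at most 10, the 12 with the widest range across populations, at most 5 per pathway list, and Tbx1. The genes and lists were chosen with earlier results of these data known. Near-identical copies were searched with BLAST (2.17.0) in NCBIM37, for sequence only, and promoters were read from RefSeq windows of GRCm38.p6. Alternatives covered the cell filter, doublets, clustering, scaling, thinning to 5000 UMIs, level filter, fold threshold and cells of 1 sex.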

Additional observations from a re-analysis of the deposited data

Results flagged for a closer look

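5 genes had ratios (library labelled cKO over library labelled Ctrl) whose intervals lay above 0 in 1 population and below 0 in another; the difference between populations was not tested, since each has 1 library per group. Spans are over the populations whose interval excludes 0. Slc16a3 spanned 0.63 on the log2 scale, from 0.32 (0.12 to 0.53) in septum transversum mesenchyme-like cells to -0.30 (-0.51 to -0.10) in pharyngeal mesenchyme-like cells. The muscle enolase Eno3 spanned 0.598, from 0.44 in pSHF-like cells (108 and 147 CPM) to -0.16 in MLP-like cells; its lowest ratio, -0.31 in endothelium-like cells, had an interval that spans 0. Ldha spanned 0.394, from 0.29 in CM-like to -0.11 in paraxial mesoderm-like cells. Tpi1 spanned 0.392, from 0.04 in pSHF-like to -0.35 in paraxial mesoderm-like cells. Among those populations Dlat spanned 0.372, from 0.17 in MLP-like to -0.20 in CM-like cells; its highest ratio, 0.51 in epicardium-like cells, had an interval that spans 0.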

How the results depend on the processing

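No paired analysis was possible because each group is 1 library. Of 846 values of the 72 ratios past the fold under the alternatives, 746 differed from the reported value by less than counting error, 100 moved and 0 changed sign. The median ratio of the set, above 0 in all 10 populations as reported, fell below 0 in 21 of 147 values. 6 of these came without the genes with copies (an alternative added after seeing the data): -0.163 in endothelium-like, -0.149 in pharyngeal mesenchyme-like, -0.0801 in SoM/aSHF-like, -0.0519 in MLP-like, -0.0367 in CM-like and -0.0440 in paraxial mesoderm-like cells. In CM-like cells it was -0.0104 with doublets kept and -0.0138 with every barcode. The others were 3 in Y-positive cells and 2 each in Xist-positive cells, after thinning (lowest -0.114, endothelium-like), with per-cell means, with totals without mitochondrial, ribosomal protein and haemoglobin genes and with no filter on level. In pSHF-like cells it was 0.298 with scaling by the median ratio, 0.143 after thinning, 0.164 in Xist-positive cells, 0.276 at 50 CPM, 0.130 with no filter on level and 0.0960 without copies; in epicardium-like cells it was 0.230 after thinning and 0.144 in Xist-positive cells. Of 234 values of the summed level 131 moved beyond counting error, and the sum in the library labelled cKO was higher in 117 of 117 comparisons of the libraries, by 0.442% (pharyngeal mesenchyme-like, Y-positive cells) to 32.7%; without the genes with copies it was not higher in paraxial mesoderm-like cells. The cause was not tested.

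The counts of genes past the fold also depended on the settings. At a log2 threshold of 1 the higher counts were 0 in all 10 populations and the lower ones 0 to 3 (0 in MLP-like, BrM-like and septum transversum mesenchyme-like, 2 in SoM/aSHF-like, 3 in epicardium-like and 1 in the other 5 populations). At 50 CPM the lower counts were 3 in BrM-like and SoM/aSHF-like, 2 in endothelium-like and epicardium-like, 1 in MLP-like, paraxial and septum transversum mesenchyme-like and 0 in pSHF-like and pharyngeal mesenchyme-like cells, and 1 was higher in epicardium-like cells, since fewer genes were counted. With no filter on level, 4 were lower in pSHF-like and 5 in septum transversum mesenchyme-like cells, and 5 higher in paraxial mesoderm-like cells. Scaling by the median ratio gave 7 higher in BrM-like, pSHF-like and septum transversum mesenchyme-like, 6 in SoM/aSHF-like, 5 in endothelium-like and pharyngeal mesenchyme-like and 4 in epicardium-like cells, with 2 lower in BrM-like and 1 in septum transversum mesenchyme-like cells. Totals without mitochondrial, ribosomal protein and haemoglobin genes gave 6 higher and 3 lower in BrM-like cells. After thinning the lower counts were 2 in MLP-like and CM-like, 1 in pSHF-like and septum transversum mesenchyme-like and 3 in epicardium-like cells. In Y-positive cells 5 were higher in SoM/aSHF-like, 6 in paraxial and 9 in septum transversum mesenchyme-like cells, with 3 lower in BrM-like and 2 in epicardium-like cells; in Xist-positive cells 2 were higher in MLP-like, 2 higher and 2 lower in CM-like and 4 higher in epicardium-like cells. Without the genes with copies, 2 were higher in MLP-like and septum transversum mesenchyme-like, 1 in pSHF-like, CM-like, endothelium-like and epicardium-like and 0 in BrM-like, pharyngeal mesenchyme-like and paraxial mesoderm-like cells. Keeping doublets or every barcode left 2 higher in CM-like cells, and keeping doublets 1 lower in septum transversum mesenchyme-like cells. The first clustering pass gave 2 lower in paraxial mesoderm-like and 3 in epicardium-like cells, the 34 genes used as variable genes 2 lower in paraxial mesoderm-like cells, the mean of per-cell levels 1 lower in pSHF-like and septum transversum mesenchyme-like cells, and resolution 0.6 or no integration 2 higher in MLP-like cells. Every barcode, resolution 0.6 and no integration left 9 of 10 populations, without pharyngeal mesenchyme-like cells. Of the 72 ratios, 35 were past the fold in every alternative that gave a value. Among the others, Hk1 in endothelium-like and Hk2 in pharyngeal mesenchyme-like cells lost it in Xist-positive cells (-0.05 and -0.28). Slc2a1 in epicardium-like cells lost it in Y-positive cells (-0.08) and in the first clustering pass (-0.49). Pfkfb3 in CM-like and Pdk1 in septum transversum mesenchyme-like cells lost it after thinning (-0.23 and -0.37). Ldhb in pharyngeal mesenchyme-like (0.29) and Hk2 in endothelium-like cells (-0.45) lost it in 1 alternative. The same held for Slc2a3, Pdk1 and Aldoc in CM-like cells (-0.40, -0.33 and 0.35). 8 ratios were past the fold in at most 7 of 12 alternatives: Ldhb in paraxial mesoderm-like cells in 5 (0.29 to 0.75), Slc16a1 there (-0.78 to -0.27) and Dlat in epicardium-like cells (0.06 to 0.60) in 6, and in 7 Mdh1 in MLP-like (0.45 to 0.64), Bnip3 in BrM-like (-0.65 to -0.41), Hk2 in CM-like (-0.71 to -0.35) and septum transversum mesenchyme-like (-0.60 to -0.34) and Gpi1 in CM-like cells (0.40 to 0.60).

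With 1 library per group, no value here measures the spread between embryos, and stage, pool and genotype are confounded. Intervals describe sampling of UMIs alone. Genes under about 30 CPM have wide intervals, and epicardium-like cells (63 and 87) are the least precise population.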

Other observations

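Within the endothelium-like and CM-like populations the genes also differed between clusters. Endothelium-like cluster 15 had 183 and 139 CPM of Slc2a1 (libraries labelled Ctrl and cKO) against 63.7 and 42.3 in cluster 18. Slc2a3 was at 61.3 and 17.0 in cluster 15 and 13.5 and 4.70 in cluster 18. Among the CM-like clusters, Hk1 was at 142 and 124 in the Myh6-led cluster 16 and 158 and 106 in the Myl2-led cluster 23, but 30.8 and 28.3 in cluster 21, whose Slc2a3 was the highest of these clusters in both libraries (127 and 62.9). Pfkp was at 114 and 100.3 in cluster 23 and 38.3 and 21.4 in cluster 21.

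Unnamed cluster 25, led by Pf4, had 13 and 9 cells and the highest Slc2a3 level of any cluster in both libraries, 390.1 and 323. In the unnamed cluster 1 (421 and 830 cells) Slc2a3 stood at 56.9 and 11.9 and Slc2a1 at 155 and 68.7, and the cells were not compared further.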
